A study of Mus musculus with 58 samples.

Results

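The Bcl2 family decides whether a cell under stress keeps its mitochondria intact or undergoes apoptosis. The data on 10 of its genes were examined here, namely Bmf, Bcl2l11, Bbc3, Pmaip1, Bid, Bad, Bcl2, Bcl2l1, Mcl1 and Bak1. The set was chosen by family membership and by the measured log2 ratios of Bmf in liver over the doses, which are therefore described below without a test. The 10 genes are among 20018 named on the arrays, and 13 of 55681 probes belong to them.

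Adult male Muta™Mouse, a transgenic strain used for scoring mutations, received the polycyclic aromatic hydrocarbon benz(a)anthracene (BaA) by gavage every day for 28 days. The vehicle was olive oil, and the doses were 0 (D0, oil only), 20 (D1), 40 (D2) and 80 (D3) mg/kg-bw/day. All groups, controls included, carried the transgene, were about 10 weeks old and were sampled 72 h after the last gavage, so the values describe RNA levels 3 days after exposure ended. Tissue RNA of lung (5 mice per group), liver (5, 5, 5 and 4 mice from D0 to D3) and forestomach (4, 5, 5 and 5 mice) was labelled with 1 dye and hybridised on 58 arrays together with the same reference RNA in another dye, which was pooled from 11 mouse cell lines. Every level below is the log2 ratio of tissue to reference, so a level of 0 means equal signals after normalisation. For 1 probe, levels can be compared between tissues, subject to how the arrays were scaled, but they cannot be compared between genes. In bulk RNA of this kind, fewer cells of a type and less RNA per cell cannot be told apart.

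The family has 3 working parts. BH3-only proteins sense damage or lost survival signals. Bmf, bound to motor complexes of the cytoskeleton until released, Bcl2l11 (Bim), Bbc3 (Puma) and Pmaip1 (Noxa), both classic p53 targets, Bid, which is cut by caspase-8, and Bad, which is held inactive by phosphorylation, belong to this group. Bcl2, Bcl2l1 (Bcl-xL) and Mcl1 are survival proteins that BH3-only proteins bind and block. Bak1, like its relative Bax, is an effector that opens the outer mitochondrial membrane.

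Promoter sequence was available in RefSeq (GRCm38.p6) for 9 of the 10 genes, in 17 windows of 250 bases before a transcript start. These were searched on both strands for GCGTG, the core bound by the aryl hydrocarbon receptor (AhR), the receptor of polycyclic aromatic hydrocarbons. Of all 32851 such windows, 28.2% held the core, and 7 of the 17 did. The 5′-most windows of Bmf, the gene that chose the set, and of Bbc3, the BH3-only gene with the most copies, are printed to set a window without the core beside one with several. Capitals mark GCGTG or its complement CACGC.
Bmf, chr2:118549687-118549936, minus strand: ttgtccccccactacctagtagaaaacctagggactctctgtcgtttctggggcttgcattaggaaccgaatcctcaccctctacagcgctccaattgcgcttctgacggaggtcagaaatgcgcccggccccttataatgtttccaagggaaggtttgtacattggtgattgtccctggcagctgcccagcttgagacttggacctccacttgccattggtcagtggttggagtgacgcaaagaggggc
Bbc3, chr7:16309333-16309582, plus strand: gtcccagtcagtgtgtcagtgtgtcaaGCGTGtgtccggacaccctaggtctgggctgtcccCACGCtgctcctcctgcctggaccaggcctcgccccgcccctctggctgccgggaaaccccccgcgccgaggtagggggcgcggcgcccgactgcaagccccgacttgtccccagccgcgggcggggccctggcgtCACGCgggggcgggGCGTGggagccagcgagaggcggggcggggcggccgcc
The Bbc3 window held 4 copies, and the 3 Bmf windows held 0. None of the 3 Bmf windows held the GC box core GGGCGG (in 32.7% of all windows), the E-box CACGTG (6.02%) or the forkhead motif TGTTTAC (3.17%) either. The GC box core stood in 9 of the 17 windows, belonging to 6 of the 9 genes. A match is a description of the letters in a window, not a site in use.

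The tissues matched their labels by defining markers. The mean of 4 lung epithelial markers lay between 6.94 and 7.46 on lung arrays and between -0.17 and 0.02 on liver arrays. The mean of 4 liver markers lay between 6.68 and 7.47 on liver arrays and between 0.53 and 1.42 on lung arrays. On forestomach arrays the liver mean was 0.20 to 3.57, with 1 to 4 of the 4 markers well above background. All 4 squamous markers were well above background on every forestomach array. Forestomach arrays fell into 2 sets by the mean of 6 glandular stomach markers, a tissue that adjoins the forestomach. It was 4.53 to 6.02 on 10 arrays and 0.95 to 2.68 on the other 9, and the 10 comprised 1 of 4 D0, 5 of 5 D1, 2 of 5 D2 and 2 of 5 D3 arrays. One lung array (D0, mouse 5) had a squamous marker mean of 4.08, and another (D3, mouse 16) had 1.94. On both, all 4 squamous markers were above background. On lung arrays the means of the fat (1.02 to 6.33), neutrophil (2.68 to 7.32) and macrophage (1.72 to 3.05) markers also varied, while red blood cell markers had means of 5.49 to 6.39. On liver arrays the same lists had means of -0.12 to 0.64, -0.15 to 2.75, 0.71 to 1.75 and 5.36 to 6.16, and on forestomach arrays -0.05 to 5.72, 0.21 to 2.37, -0.04 to 1.43 and 1.76 to 3.55. Of all probes, 42.8% to 53.8% were well above background on a lung array, 32.8% to 44.6% on a liver array and 36.8% to 68.5% on a forestomach array.

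In lung, all 10 genes were bright enough to be tested. In liver 8 were, since Bcl2l11 and Pmaip1 were well above background on 0 of 19 liver arrays. In forestomach 9 were, without Bcl2l11, which was above background on 1 of 19 arrays.

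Bmf levels were higher at higher doses on the liver arrays, which is how the gene came to be chosen. The D0 livers had log2 levels of -0.52, -0.14, -0.27, 0.23 and -0.28, with a mean of -0.20 ± 0.28 (SD, n = 5). At D1 they were 0.41, -0.27, 0.22, -0.30 and 0.64, with a mean of 0.14 ± 0.41 (SD, n = 5). At D2 they were 0.27, -0.0044, 0.60, -0.38 and 0.96, with a mean of 0.29 ± 0.52 (SD, n = 5). The D1 and D2 livers overlapped with the controls, and the spread among mice of these 2 groups was wider than among controls. At D3 the 4 livers reached 0.87, 1.42, 1.16 and 1.01, with a mean of 1.12 ± 0.24 (SD, n = 4). Every D3 liver lay above every D0 and D1 liver, while 1 D2 liver (0.96) lay above the lowest D3 liver. The mean difference from D0 was 0.34 (SE 0.22) at D1, 0.49 (SE 0.22) at D2 and 1.31 (SE 0.24) at D3 on the log2 scale, the last being 2.48-fold.

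**Figure D1:**
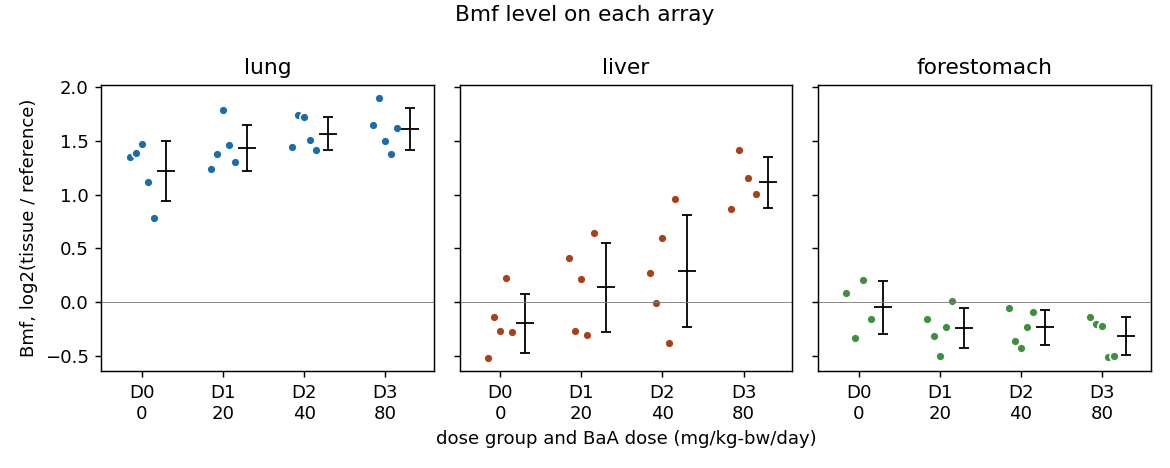
Bmf level (log2 ratio of tissue to reference RNA, vertical axis) on every array of lung, liver and forestomach against dose group and BaA dose in mg/kg-bw/day. Points are mice and black bars are group means ± SD. The 4 D3 livers sit between 0.87 and 1.42 and the 5 D0 livers between -0.52 and 0.23, lung starts at a mean of 1.22, and forestomach stays between -0.51 and 0.21 over all doses.

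Each tissue was hybridised on 3 slides that held all dose groups. Within them the D3 livers exceeded the D0 livers by 1.11 (2 against 2 mice), 1.95 (1 against 1) and 1.08 (1 against 2). These are the values that chose the gene, split by slide, and so a description. Without D3 mouse 17, the highest of the group, the difference was 1.21. The reference channel of the same probe differed by 0.063 (SE 0.041) between D3 and D0 livers, so the difference lay in the tissue channel. The mean of 3 macrophage markers, all above background on every liver array, was 0.89 to 1.59 in D0 livers and 1.01 to 1.32 in D3 livers, and that of 3 neutrophil markers, of which 1 to 2 were above background, was -0.15 to 1.68 and -0.04 to 0.64. The mean of 6 B cell markers, of which 1 to 3 were above background, was -1.08 to -0.87 and -0.96 to -0.89, and that of 5 T cell markers, of which 1 to 4 were, was -0.56 to -0.26 and -0.51 to -0.36. The part of these cells in the Bmf values was not tested.

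In lung, Bmf started higher and its differences were smaller. The 5 D0 lungs had log2 levels of 1.35, 1.39, 1.47, 1.12 and 0.78, with a mean of 1.22 ± 0.28 (SD, n = 5). The group means were 1.43 ± 0.22 at D1, 1.57 ± 0.15 at D2 and 1.61 ± 0.19 at D3 (SD, n = 5 each). The 5 D3 lungs had 1.65, 1.90, 1.5, 1.38 and 1.62, so 2 control lungs lay above the lowest D3 lung. The D3 difference of 0.39 (SE 0.13, 95% confidence interval 0.12 to 0.66) was 1.31-fold, under the fold threshold of 1.5. Its adjusted p of 0.0671 in limma's test missed the p threshold as well. The trend, judged on the adjusted p alone, also missed it, at 0.37 (SE 0.12) over 80 mg/kg-bw/day with an adjusted p of 0.0588 in limma. Under the alternative settings the adjusted p of the D3 difference in limma ranged from 0.0355 to 0.952, and none of them called Bmf. Without the D0 lung of mouse 5, which had the highest squamous marker mean, the D3 difference was 0.28 (adjusted p = 0.176 in limma). The D3 lung of mouse 16, with a squamous mean of 1.94, remained in that contrast. The mean of 6 B cell markers moved with the lung groups, from a median of 0.65 at D0 to 0.90, 1.22 and 1.04 at D1, D2 and D3, with ranges of 0.45 to 0.87 at D0 and 0.91 to 1.17 at D3. Their part in the Bmf values was not tested.

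In forestomach, the Bmf means at the 3 doses lay below the control mean. The D0 mean was -0.05 ± 0.24 (SD, n = 4), with values of 0.088, -0.33, 0.21 and -0.16. The D1, D2 and D3 means were -0.24 ± 0.19, -0.23 ± 0.16 and -0.31 ± 0.17 (SD, n = 5 each). The D3 difference was -0.27 (SE 0.13, adjusted p = 0.982 in limma), with an interval of -0.53 to 0.0014. The mean of 3 fat markers had forestomach medians of 5.05, 0.32, 1.75 and 0.93 from D0 to D3. Its range was 0.15 to 5.72 at D0 and -0.05 to 3.53 at D3. The part of fat in the Bmf values was not tested. The D3 difference in liver exceeded that in forestomach by 1.58 (SE 0.26) and that in lung by 0.93 (SE 0.25), both descriptions, since the liver values chose the gene. Between lung and forestomach, where Bmf was not chosen, the D3 differences differed by 0.65 (SE 0.25, adjusted p = 0.376 in limma), which did not pass.

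None of the 10 genes was called at any dose in any tissue, Bmf in liver being given no test. Calls required 1.5-fold or more together with an adjusted p no higher than 0.05. In lung, 0 of 10 were called at D1, D2 and D3, where 0%, 0.556% and 1.88% of all 30383 probes were. In liver, of the 7 genes other than Bmf, 0 were called at the 3 doses, where 0.241%, 0.588% and 0.434% of 22789 probes were. In forestomach 0 of 9 were called, against 0%, 0.0124% and 0.0248% of 32318 probes. A count of 0 among so few genes is near those background shares. For the trend over dose, called on the adjusted p alone, 0 of 10 genes passed in lung (11.6% of probes), 0 of 7 without Bmf in liver (0.676%) and 0 of 9 in forestomach (0.0248%). An unadjusted p under 0.05 in limma was reached by 0, 1 and 1 genes in lung from D1 to D3, by 0, 1 and 1 in liver (without Bmf) and by 2, 1 and 1 in forestomach. Of all probes, 7.46%, 16% and 23.9% reached it in lung, 7.52%, 12.8% and 15% in liver and 4.42%, 3.29% and 5.11% in forestomach. Dose and control values did not overlap for 0 genes in lung at any dose, against 1.04%, 4.6% and 7.47% of probes from D1 to D3. In liver they did not overlap for 0 of the 7 genes other than Bmf, against 1.26%, 2.79% and 5.23% of probes. In forestomach they did not overlap for Bad at D2 and D3, against 1.43%, 1.18% and 1.96%.

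**Figure D2:**
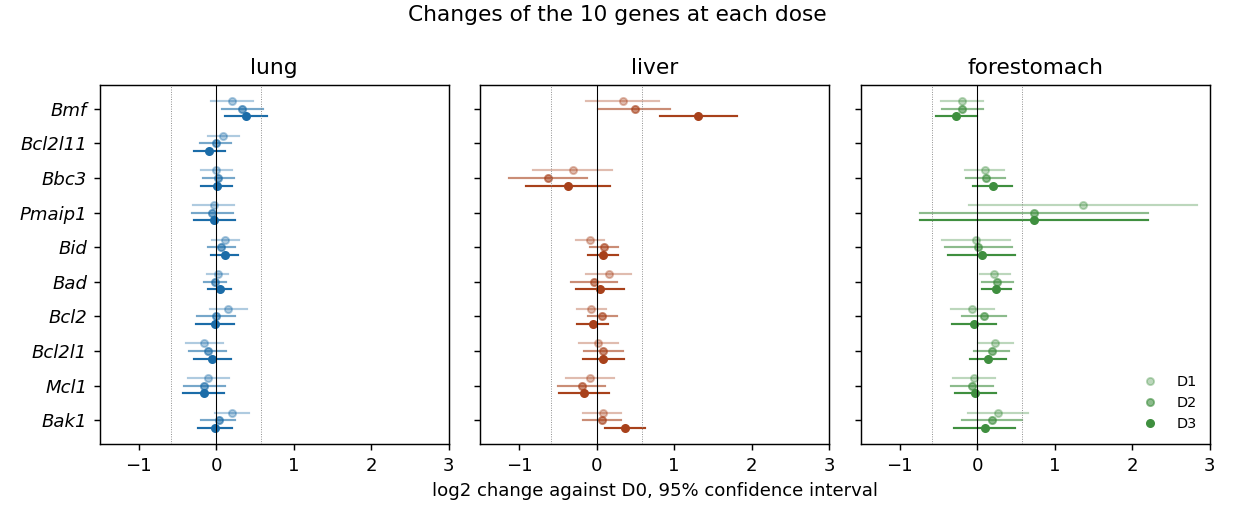
Log2 change of each gene against D0 (horizontal axis, points, with 95% confidence intervals as lines) at D1, D2 and D3 in lung, liver and forestomach. Dotted lines mark a 1.5-fold change and untested genes have no point. Bmf at D3 in liver stands at 1.31, and the widest intervals are those of Pmaip1 in forestomach.

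For most of the 10 genes the arrays bounded the D3 difference fairly tightly. Over all 10 genes in lung the 95% intervals lay between -0.42 and 0.66 on the log2 scale. Over the 7 in liver other than Bmf they lay between -0.91 and 0.62, and over the forestomach genes other than Pmaip1 between -0.53 and 0.49. The median D3 difference over the genes tested was -0.015 in lung and 0.10 in forestomach, beside 0.003 and -0.0061 over all probes. No such median is given for liver, where Bmf chose the set.

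Among the other BH3-only genes, Bbc3 had the widest spread between livers. Its D0 livers had log2 levels of -0.36, -0.0087, 0.80, 0.32 and 0.41 and its D2 livers 0.32, -1.02, -0.061, -0.73 and -0.48. The ranges overlapped, and the D2 difference of -0.63 (SE 0.24) had an adjusted p of 0.269 in limma. The D3 livers, at 0.21, -0.28, -0.25 and -0.24, differed from D0 by -0.37 (SE 0.26, adjusted p = 0.542 in limma). Within the 3 slides the D2 difference was -0.96, 0.015 and -0.68, so 1 slide did not show it. In lung Bbc3 had group means of 0.05, 0.04, 0.07 and 0.05 from D0 to D3.

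Pmaip1 in lung had group means of 0.30, 0.27, 0.25 and 0.27 and differences of -0.049 to -0.025 (SE 0.13 each). In forestomach it spread over a wide range. The D0 forestomachs had -3.26, -0.87, -3.02 and -2.96, and the D1 forestomachs -1.57, -0.24, -1.84, -0.89 and -1.29. At D2 the levels were -2.91, -2.59, -2.97, 0.15 and -0.67, and at D3 they were -2.69, -2.49, -2.75, -0.77 and -0.28. Each of the D0, D2 and D3 groups thus held low and high arrays, and D1 held high ones only.

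These levels moved with the glandular stomach markers. On the 10 arrays with a high marker mean Pmaip1 was -1.84 to 0.15, and on the 9 with a low mean it was -3.26 to -2.49, so the sets did not overlap. Of all 32318 probes, 2.69% did not overlap between these sets, and of the 10 genes Pmaip1 was the only one that did not. Slide moved with the markers as well, since all 6 arrays of 1 forestomach slide belonged to the high set. The difference at D1, 1.36 (SE 0.70, adjusted p = 0.968 in limma), set 5 high arrays against 1 high and 3 low. On the 9 arrays with a low mean, which included no D1 array, the levels were -3.26 to -2.96 at D0, -2.97 to -2.59 at D2 and -2.75 to -2.49 at D3 (n = 3 each). There the D3 difference was 0.44 (SE 0.13, adjusted p = 0.22 in limma) and 0 of the 9 tested genes were called. The part of the glandular markers in the Pmaip1 values was not tested.

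**Figure D3:**
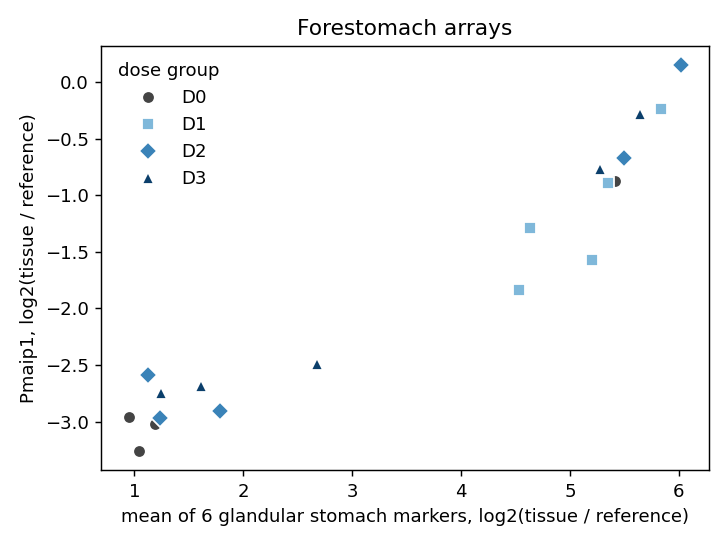
Pmaip1 level on the 19 forestomach arrays (vertical axis, log2 ratio) against the mean of 6 glandular stomach markers (horizontal axis, log2 ratio), with dose group by symbol. The arrays fall into 2 sets, 9 with Pmaip1 at or below -2.49 and 10 at or above -1.84, and all D1 arrays are in the upper set.

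Bak1 overlapped between the 2 sets, but only just. It was -0.74 to -0.03 on the 10 arrays with a high glandular mean and -1.10 to -0.68 on the other 9. Bid went the other way, with medians of -1.12 and -0.71. The remaining 7 genes differed by -0.25 to 0.36 between the means of the sets.

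Bcl2l11, which was dim, was above background on 13 of 20 lung arrays and had lung group means of -0.47, -0.38, -0.48 and -0.55 from D0 to D3. Its largest lung difference was 0.093 (SE 0.10) at D1. Bid had lung means of -1.85, -1.73, -1.79 and -1.74 and liver means of -0.49, -0.57, -0.40 and -0.41, with differences of at most 0.12 (SE 0.084) in lung and 0.091 (SE 0.085) in liver.

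Bad was slightly higher in forestomach at D2 and D3 than at D0, by an amount that varied between slides. The D0 forestomachs had -0.62, -0.86, -0.51 and -0.49, and the D3 forestomachs -0.44, -0.39, -0.47, -0.32 and -0.21. The D2 levels, -0.47, -0.44, -0.45, -0.12 and -0.29, did not overlap with D0 either. The differences of 0.26 at D2 and 0.25 at D3 (SE 0.092 each) had adjusted p of 1 and 0.85 in limma. The lowest D0 array, mouse 2, was the one with glandular markers. Within the 3 slides the D3 difference was 0.20, 0.024 and 0.60, and on the last slide mouse 2 was the only D0 array. On the arrays with a low glandular mean the D3 difference was 0.10 (SE 0.072), and the other probe of Bad gave -0.0023 (SE 0.10) at D3 over all arrays.

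No survival gene was called at any dose. Bcl2 had liver means of -0.96, -1.03, -0.89 and -1.02 and lung means of 0.56, 0.72, 0.56 and 0.55 from D0 to D3. Bcl2l1 had liver means of 0.24, 0.26, 0.33 and 0.32, and its D3 difference there was 0.082 (SE 0.13). Mcl1 had lung means of 0.86, 0.76, 0.71 and 0.70 and liver means of -0.40, -0.49, -0.60 and -0.57, where 1 of the 5 D0 spots was marked as an outlier and dropped. Its D3 difference was -0.16 in both tissues (SE 0.13 in lung and 0.15 in liver). The other probe of Mcl1 gave -0.034 in lung and 0.15 in liver at D3, and neither probe was called.

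The D3 difference of the effector Bak1 in liver was, after Bmf, as large as that of Bbc3 and of opposite sign. Its D0 livers had -1.70, -1.57, -1.58, -1.51 and -1.31, and its D3 livers -1.16, -1.11, -1.37 and -1.04, so 1 control lay above the lowest D3 liver. The difference of 0.37 (SE 0.12) had an adjusted p of 0.161 in limma. The reference channel of this probe was lower on D3 than on D0 liver arrays by a similar amount, -0.32 (SE 0.095, adjusted p = 0.304 in limma), and the tissue channel alone gave 0.072 (SE 0.16). The D3 means in lung and forestomach, -0.65 and -0.72, differed from D0 by -0.013 (SE 0.11) and 0.10 (SE 0.19).

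In vehicle mice, some genes of the family were called in each pair of tissues, as were large shares of all probes. Between lung and liver, 6 of the 7 genes other than Bmf were called, where 50.6% of all probes were. Higher in lung were Bcl2, Bcl2l1, Mcl1, Bad and Bak1, and lower was Bid. The largest was Bcl2, at 0.49 to 0.65 in D0 lungs and -1.14 to -0.76 in D0 livers (difference 1.53, SE 0.11, adjusted p = 1.34e-17 in limma). Bmf, whose control livers are among the values that chose the set, differed by 1.42 (SE 0.17), given as a description. Bid lay at -2.02 to -1.59 in lung and -0.75 to -0.18 in liver (difference -1.36, SE 0.13, adjusted p = 3.34e-13 in limma). Bbc3 differed by -0.19 (SE 0.17, adjusted p = 0.318 in limma), with an interval of -0.53 to 0.16. With arrays centred on their medians 4 of the 7 were called, without Mcl1 (1.09) and Bad (0.74).

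**Figure D4:**
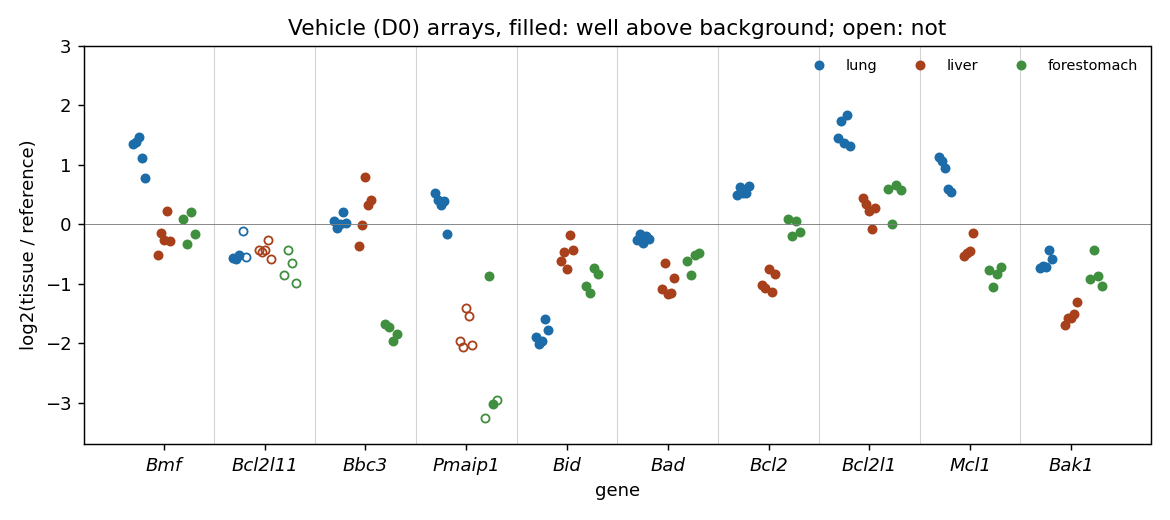
Log2 ratio of tissue to reference RNA (vertical axis) of each of the 10 genes on every vehicle (D0) array, with 5 lungs, 5 livers and 4 forestomachs. Filled points were well above background and open points were not. Bid is lowest in lung, while Bmf, Bcl2, Bcl2l1 and Mcl1 are highest there.

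Between lung and forestomach, 7 of 9 genes were called, where 31.8% of all probes were. All 3 survival genes were higher in lung, Mcl1 by 1.70 (SE 0.14), Bcl2l1 by 1.08 (SE 0.12) and Bcl2 by 0.61 (SE 0.12). So were the BH3-only genes Bmf, by 1.27 (SE 0.18, adjusted p = 3.64e-08 in limma), Bbc3, by 1.85 (SE 0.18), and Pmaip1, by 2.83 (SE 0.44). Pmaip1 was above background on 2 of the 4 control forestomachs and dim on the others, so the size of its difference is limited by the background there. It was 3.38 without the forestomach array of mouse 2, the control rich in glandular markers. Bid was lower in lung (-0.91, SE 0.14). Bad differed by 0.38 (adjusted p = 0.00279 in limma), under the fold threshold, and Bak1 by 0.18 (adjusted p = 0.294 in limma). The Bcl2 difference, near the fold threshold, was 0.56 without that array and then not called. With median centring 3 of 9 genes were called, Bmf (0.65), Mcl1 (0.78), Bcl2l1 (0.23) and Bcl2 (0.084) no longer being among them, and the share of called probes that were higher in lung went from 52.9% to 21.5%.

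Between liver and forestomach, 3 of the 7 genes other than Bmf were called, where 44.9% of all probes were. Bbc3 was higher in liver by 2.04 (SE 0.18, adjusted p = 2.04e-14 in limma), and its D0 forestomachs, at -1.97 to -1.68, lay far below every control liver. Bcl2 was lower in liver by 0.92 on the log2 scale (difference -0.92, SE 0.12), and so was Bak1 (difference -0.72, SE 0.15), which without all arrays of mouse 2 differed by -0.58 and was not called. Bmf differed by -0.15 (SE 0.18), a description, and by -0.99 with median centring. That centring gave 4 of 7 genes called, now including Bad (-1.12), lower in liver, and the share of called probes that were higher in liver went from 46.1% to 13.6%.

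Levels in D0 mice therefore ran from lung to forestomach to liver for Bcl2 and Bad, and from lung to liver to forestomach for Mcl1. For Bid the order was liver, forestomach and lung, with a step of 0.45 between liver and forestomach, under the fold threshold. For Bcl2l1, liver and forestomach were not distinguished, for Bbc3 lung and liver were not, and for Bak1 lung and forestomach were not. Both steps of the order passed the fold threshold for Bcl2. The Bad steps from lung to forestomach and from forestomach to liver, 0.38 and -0.38 (liver minus forestomach), and the Mcl1 step from liver to forestomach, 0.44, fell short of it. With median centring several small steps changed sign, and none of these was called. They went to -0.39 for Bad and -0.50 for Bak1 (lung minus forestomach) and to -0.31 for Mcl1 and -0.44 for Bid (liver minus forestomach). The Bad step between liver and forestomach kept its sign there and was called (-1.12). Pmaip1 was not well above background on any liver array and was at least 4.31-fold higher in control lungs. That bound sets the lung mean of the tissue channel signal against the higher of the dim spot and the lowest signal called above background in liver. For Bcl2l11, above background on 3 of 5 control lungs and 0 of 4 control forestomachs, the same ratio to forestomach was 1.21-fold. Since its lung mean included dim arrays, that ratio is not a lower bound.

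Where a gene had another probe, the tissue differences depended on it for Bad in direction and for Bcl2l1 in size. The other probe of Bad gave -0.078 (adjusted p = 0.471 in limma) between lung and liver, where the brighter probe gave 0.75. The other probes of Mcl1 (0.96) and Bcl2l1 (0.33) gave the same direction between lung and liver, the first called and the second under the fold threshold. Between lung and forestomach the other probe of Mcl1 (1.15) was called, and that of Bcl2l1 (0.48) was under the fold threshold, which ends that call.

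The D3 differences of the other genes were not shown to depend on tissue. The test of the difference between tissues called 0 of 9 genes for lung against forestomach, where 0.257% of all probes were called. Leaving out Bmf, it called 0 of 7 genes for lung against liver (2.07% of all probes) and 0 of 7 for liver against forestomach (0.0453%). The largest after Bmf were Pmaip1 between lung and forestomach, -0.76 (SE 0.60, adjusted p = 0.822 in limma), and Bbc3 between liver and forestomach, -0.57 (SE 0.26, adjusted p = 0.646 in limma).

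Apoptosis genes around the family were followed in 4 lists of 55 genes, which held other Bcl2 family members, the mitochondrial pathway, the death receptor pathway, and regulators or partners of BH3-only proteins. Tested were 50 of them in lung, 46 in liver and 49 in forestomach, and 0 were called in either direction at any dose. At D3 an unadjusted p under 0.05 in limma was reached by 18, 6 and 3, where 23.9%, 15% and 5.11% of all probes reached it. The median D3 difference over the tested genes was 0.042 in lung, 0.071 in liver and 0.084 in forestomach, beside 0.003, -0.004 and -0.0061 over all probes.

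In liver, 2 of the 46 genes had an adjusted p under 0.05 at D3 with a fold change short of 1.5, as did 0.693% of all probes. Ddit3 (CHOP), a stress factor that induces Bcl2l11, stood at -2.02 to -1.74 in D0 and -2.40 to -2.26 in D3 livers, a difference of -0.47 (SE 0.083, adjusted p = 0.0123 in limma). It was already -0.50 (SE 0.078) at D1 and -0.47 (SE 0.078) at D2. Fadd, the adaptor that joins death receptors to caspase-8, stood at 0.22 to 0.47 and 0.55 to 0.86, a difference of 0.44 (SE 0.088, adjusted p = 0.0204 in limma). For both genes, named for their adjusted p, the D0 and D3 livers did not overlap, as held for 5.23% of all probes.

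The death receptor inhibitor Cflar differed in liver by -0.36 (SE 0.15, adjusted p = 0.241 in limma). Mapk8 (JNK1), which phosphorylates Bmf and Bcl2l11, differed by 0.34 (SE 0.13, adjusted p = 0.225 in limma). The other liver genes with the largest D3 differences of their lists were Bik (0.30), a BH3-only protein of the endoplasmic reticulum, Bok (-0.25), an effector relative, the caspase Casp9 (0.23) and the inhibitor of apoptosis Birc5 (-0.22). None of these had an adjusted p below 0.453.

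In lung, 8 of the 50 genes had an adjusted p under 0.05 at D3 and a fold change short of 1.5, as did 7.24% of all probes. The largest was Htra2, a mitochondrial protease that neutralises inhibitors of apoptosis, at -1.38 to -1.12 in D0 and -0.89 to -0.67 in D3 lungs (difference 0.44, SE 0.074, adjusted p = 0.00123 in limma). The effector Bax stood at -0.95 to -0.56 and -0.56 to -0.16 (difference 0.39, SE 0.11, adjusted p = 0.0259 in limma), and its groups met at -0.56. Among the others, Bik (0.37), Casp8 (0.30), the initiator caspase of death receptors, and Huwe1 (0.32), a ubiquitin ligase that marks Mcl1 for degradation, were also higher. Ywhaz (-0.36), a 14-3-3 protein that holds Bad, and Usp9x (-0.28), which removes ubiquitin from Mcl1, were lower.

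Of the lung genes with the largest D3 differences of their lists, Bcl2l14 (0.60), Dynll1 (-0.47), the dynein light chain that tethers Bcl2l11, and Fasl (0.42) had adjusted p of 0.0659, 0.222 and 0.0972 in limma. T cells, which make Fasl, had a marker mean of 0.92 to 1.16 in D0 and 1.10 to 2.52 in D3 lungs, and their part in the Fasl values was not tested.

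In forestomach the largest D3 differences were those of Bcl2l14 and Casp6 (0.59 each, SE 0.69 and 0.85), Vdac2 (0.47), Fas (-0.44), Bnip3 (0.36), Fadd (0.28), Dynll1 (-0.26) and Ddit3 (-0.20). Their adjusted p lay between 0.85 and 1 in limma. Casp6 ranged from -1.37 to 1.62 over the 4 control forestomachs alone.

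Over the 19 liver arrays, 11997 genes were ranked by their correlation with Bmf, as a description of likeness across arrays that share the dose groups. The 5 highest were Gfus (r = 0.803), an enzyme of GDP-fucose synthesis, Sipa1l2 (0.80), Tab1 (0.80), an adaptor of the kinase TAK1, Tns3 (0.783), a focal adhesion protein, and Ltn1 (0.771), a ubiquitin ligase of ribosome quality control. Sipa1l2 had group means of -1.70, -1.58, -1.17 and -0.64 from D0 to D3, closest to Bmf in the size of its D3 difference, 1.07. The others differed at D3 by 0.26 to 0.55. After the dose group means were removed, r was 0.516, 0.479, 0.469, 0.451 and 0.564 in the same order. By that r the 5 genes ranked only 227, 356, 392, 474 and 113 among the 11997. Of the family, Bak1 was most like Bmf (r = 0.561, and 0.16 within dose groups), followed by Bid (0.373) and Bcl2l1 (0.329), while Bbc3 had r = -0.0036. These r were taken on ratios, and the reference channel of Bak1 differed by -0.32 (SE 0.095) between D3 and D0 livers.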

How the data were processed

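The authors deposited each array's linear intensity values, extracted with Feature Extraction 10.7.3.1 per the file headers. Tissue RNA was labelled with Cy5 and the reference with Cy3, without dye swaps, so a dye bias of a probe is shared by all groups. The authors normalised median signals, without background correction, by LOWESS and deposited a table of log2 ratios, which served as an alternative (r of 0.995 to 0.998 with the ratios used here). Here the same signals were normalised by loess within each array, outlier spots (0.495%) were dropped, and spots of a probe were averaged. Of 55681 probes, 26413 matched a symbol in RefSeq (GRCm38.p6). The probe with the highest mean Cy5 signal stood for a gene.

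Probes whose Cy5 signal was well above background on 4 or more arrays of a tissue were tested in limma 3.58.1 (R 4.3.3), two-sided, with a model per tissue for doses and a model of all 58 arrays for tissues, and Benjamini-Hochberg adjustment over all tested probes of a contrast. MAANOVA, the authors' tool, was not run. Calls used the study's thresholds, 1.5-fold with an adjusted p of 0.05, and trends the adjusted p alone. The methods were tested on simulated data. Replicates are different mice, and the number of arrays limits the precision.

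Genes and lists were chosen with earlier results of these data known. Bmf, whose liver values chose the set, was given no p and left out of counts wherever liver entered a contrast. Named were all 10 genes, the 2 largest D3 differences of each list and tissue, list genes past the adjusted p, chosen after their values were seen, and the 5 genes most correlated with Bmf in liver, except for an item of the lists that is not reported here. Markers of fat, neutrophils, macrophages and red blood cells were also examined. A mouse number in the labels marks the same animal in each tissue. Same-mouse deviations correlated with a median r of 0.125 (lung and liver), 0.109 (lung and forestomach) and 0.062 (liver and forestomach). The alternatives were other normalisations, filters, probes and fold thresholds, slide and mouse as blocks, 2-group models, and leaving out arrays. The sets of forestomach arrays were defined after seeing the data.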

Additional observations from a re-analysis of the deposited data

Results flagged for a closer look

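Within a group of 4 or 5 mice, 1 array stood far from the others in 10 of the 120 sets of a gene and a group examined, where chance alone gives about 1 in 20. In forestomach, D0 mouse 2 was flagged for Pmaip1 (-0.87, others -3.26 to -2.96) and Bcl2l1 (0, others 0.58 to 0.66), and it was the control with a high mean of the glandular stomach markers. Mouse 10 (D1) was high for Bcl2l1 in both lung (1.73, others 1.21 to 1.35) and liver (0.67, others 0.10 to 0.23). The D0 lung of mouse 5, which held squamous markers, had Pmaip1 at -0.17 (others 0.33 to 0.53). Bbc3 was low in the D2 lung of mouse 15 (-0.14, others 0.10 to 0.17) and high in the D3 liver of mouse 16 (0.21, others -0.28 to -0.24). Bcl2l11, dim on most arrays, was high in the D0 lung of mouse 4 (-0.12, others -0.59 to -0.52), the D2 liver of mouse 14 (0.13, others -0.33 to -0.23) and the D1 forestomach of mouse 7 (-0.08, others -0.64 to -0.55).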

How the results depend on the processing

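The D3 difference of Bmf in liver, a description, lay between 1.15 (arrays centred on their medians) and 1.59 (Agilent's processed signals) under the other settings, and between 1.21 and 1.42 with 1 array left out. Its excess over the difference in lung was 0.93 (SE 0.25) with loess. With median centring, lung minus liver was -0.53 (SE 0.57), smaller than its SE. Counts of called genes leave out Bmf wherever liver enters. Median centring, which moved the median of all probes by up to -0.68 (liver minus forestomach vehicle), gave 3 genes called for lung against forestomach vehicle. It changed the share of called probes that were higher in lung from 54.9% to 65% for lung against liver vehicle. For liver against forestomach vehicle the share higher in liver went from 46.1% to 56.5% with Agilent's processed signals. The authors' table gave 1 gene with a liver trend, Bak1 (adjusted p = 0.0466). Slide as a block gave 1 gene with a lung trend, Bmf (0.36, adjusted p = 0.0301). Without a minimum fold change, 6 genes were called between liver and forestomach vehicle. Pathway genes called were 1 in lung D3, 1 in liver D2 and 2 in liver D3 with Agilent's processed signals, 1 in liver D2 with median centring, 1 in lung D3 with slide as a block, and, without a minimum fold, 1 in lung D2, 8 in lung D3, 1 in liver D1, 1 in liver D2 and 2 in liver D3. Leaving out 1 array gave 0 to 1 genes for the lung trend (1 without D1 mouse 8 or D3 mouse 19) and 0 to 1 pathway genes in lung D3 (1 without D3 mouse 19). Leaving out all arrays of mouse 2 gave 6 genes for lung against forestomach vehicle, without Bcl2 (0.54), and 2 for liver against forestomach vehicle, without Bak1 (-0.58). With the other probe of Bad, lung minus liver vehicle reversed to -0.078. With mouse as a replicate block, which pairs tissues of the same animal, 6 genes in place of 7 were called for lung against forestomach vehicle, Bcl2 being lost (0.58, adjusted p = 0.000183), and no other call changed. The cause of these changes was not tested. Dim probes limit what can be said of Bcl2l11 and Pmaip1 outside lung.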
